A study of Mus musculus with 12 samples.

Results

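The Slc25 genes encode the mitochondrial carriers, a family of proteins of the inner mitochondrial membrane. They were chosen here by symbol, as every gene named Slc25a followed by a number in the deposited table of epididymal white adipose tissue (eWAT). The rule found 47 members among 22947 genes, and it used no measured value. Male C57BL/6J mice aged 21 weeks had been fed for 16 weeks with 1 of 4 diets. They were a normal diet (ND), a high-fat diet (HFD), the HFD holding 1.5% by weight of an ethanol extract of chrysanthemum leaves (CLE) and the HFD holding 0.003% by weight of luteolin (LU), a plant flavonoid. RNA of 3 mice per diet was sequenced, so there were 12 libraries, and the study describes these mice as representative of their group. The comparisons ask how the HFD differed from the ND, and how CLE or LU differed from the HFD that both diets contained.

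Mitochondrial carriers exchange metabolites, nucleotides, phosphate and cofactors between the cytosol and the mitochondrial matrix. In white adipocytes they link the mitochondrion to the making of fat: citrate leaves the matrix as a source of carbon for fatty acids, and carriers of malate, aspartate and phosphate help to supply reducing power and glycerol. The uncoupling proteins belong to the same family by structure but carry the symbols Ucp1, Ucp2 and Ucp3, so the rule did not take them.

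The values are FPKM (fragments scaled by transcript length and by library size), summed over the transcripts of each gene. For the test, log2(FPKM + 1) entered a limma fit of 12775 genes, those with 3 or more libraries at 1 FPKM or above, and 39 members were among them. Genes counted as called had a Benjamini-Hochberg adjusted p below 0.05, taken over all genes in the fit, and a fold change above 1.5 on that scale. Differences are given on the log2(FPKM + 1) scale with the standard error (SE), and they understate the change of genes at low FPKM. The deposited values carry no read counts, so the depth behind them is unknown. Totals over all genes lay between 435095 and 455041 FPKM per library. Deposited transcripts outside these gene sums held 65.8% (HFD mouse 12) to 92.9% (LU mouse 3) of the FPKM of a library. Mice of 1 group correlated at 0.978 to 0.991 across genes (Pearson's r). The letter R, whose meaning is not given, is on the labels of 4 libraries, 2 of the ND (mice 3 and 4), 1 of CLE (mouse 4), 1 of LU (mouse 2) and none of the HFD. Adipocyte marker genes were abundant in every library, as the label of the tissue requires, with Adipoq between 1110 and 2290 FPKM.

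The members covered a wide range of levels. Slc25a3, the phosphate carrier, had the highest mean, at 189 FPKM over the 12 libraries, and it was followed by Slc25a5 (164 FPKM) and Slc25a4 (113 FPKM), both ADP/ATP carriers, with the citrate carrier Slc25a1 between them at 121 FPKM. Slc25a10, the dicarboxylate carrier, stood at 110 FPKM. Slc25a39, which takes glutathione into mitochondria, stood at 74.7 FPKM. The first 5 of these members each exceeded 100 FPKM and held 50.9% of the summed FPKM of the family. Another 20 members had means between 10 and 100 FPKM, 13 lay between 1 and 10 FPKM, and 9 were at or under 1 FPKM. In this order Slc25a1, Slc25a4 and Slc25a10 overlapped between libraries, and Slc25a1 and Slc25a10 changed places with the diet.

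**Figure D1:**
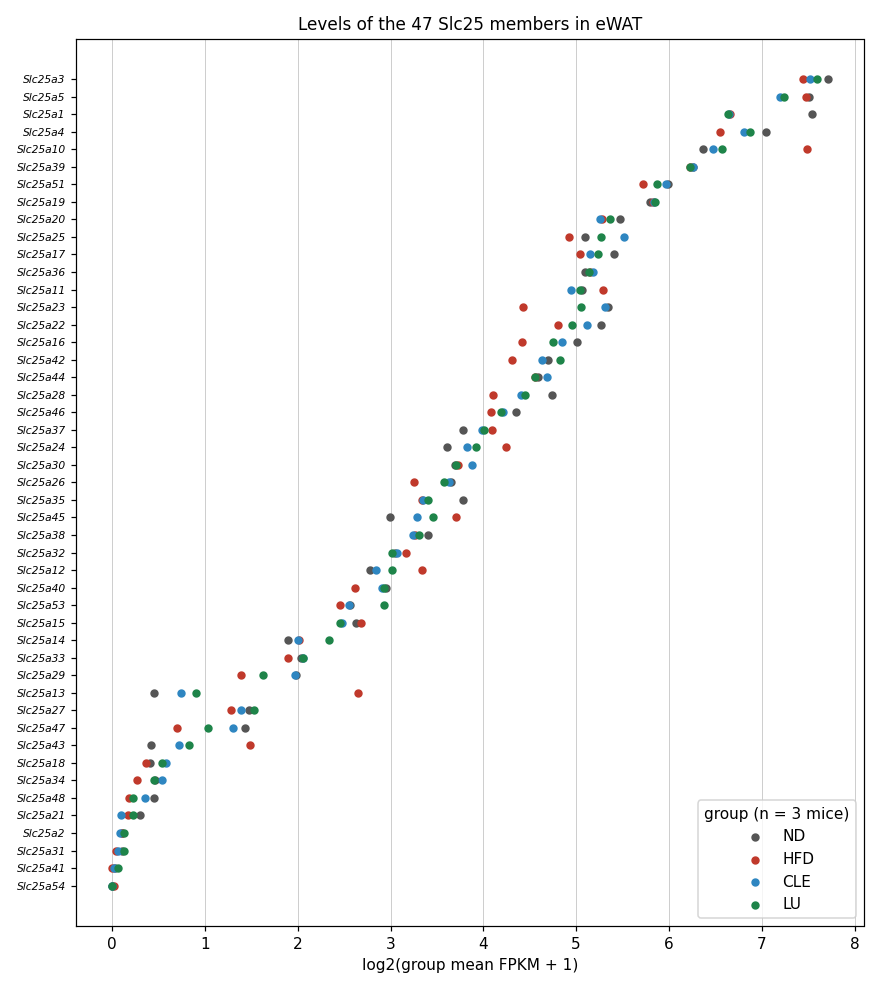
Mean FPKM of each of the 47 Slc25 members in each diet group (3 mice each), on a log2(FPKM + 1) axis, with the members ordered by their mean over all 12 libraries and points of equal value drawn over one another. Slc25a3 is highest at 189 FPKM, and Slc25a13, Slc25a10 and Slc25a43 show a point for the HFD to the right of the other groups.

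The 8 members that were not tested stayed low in every library, between 0 and 0.751 FPKM. They were Slc25a2, an ornithine carrier, Slc25a18, a glutamate carrier, Slc25a21, the oxodicarboxylate carrier, Slc25a31, the testis form of the ADP/ATP carrier, and Slc25a34, Slc25a41, Slc25a48 and Slc25a54. Slc25a54 was above 0 in 1 library alone, HFD mouse 12, and is listed at 0 in the others.

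In the HFD against the ND, 11 of the 39 tested members were called, 5 higher in the HFD and 6 lower. This is 28.2% of the members, beside 25.6% of all genes tested, so the family was called about as often as any gene. By direction, 14.9% of all genes were called higher and 10.8% lower. The median difference over the members was -0.14, beside -0.02 over all genes. The 3 HFD and 3 ND mice did not overlap for 25 members, 8 higher and 17 lower, beside 59.5% of all genes. In CLE against HFD, 7 members were called, 4 higher and 3 lower, which is 17.9% beside 16.5% of all genes (6.33% higher and 10.1% lower), and 23 did not overlap, beside 50.6%. In LU against HFD, 3 members were called, 1 higher and 2 lower, which is 7.69% beside 12.4% of all genes (4.81% higher and 7.64% lower), and 20 did not overlap, beside 47.6%. By the adjusted p alone, 21, 16 and 11 members passed in these 3 comparisons, beside 50.5%, 33.6% and 26.8% of all genes, and 1 and 4 in CLE and LU against ND, beside 5.18% and 12.8%. All 3 comparisons share the HFD mice, so an opposite sign in the first and in the other two is not independent evidence. The results below therefore concern single carriers, and the family as a whole is not set apart from other genes.

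**Figure D2:**
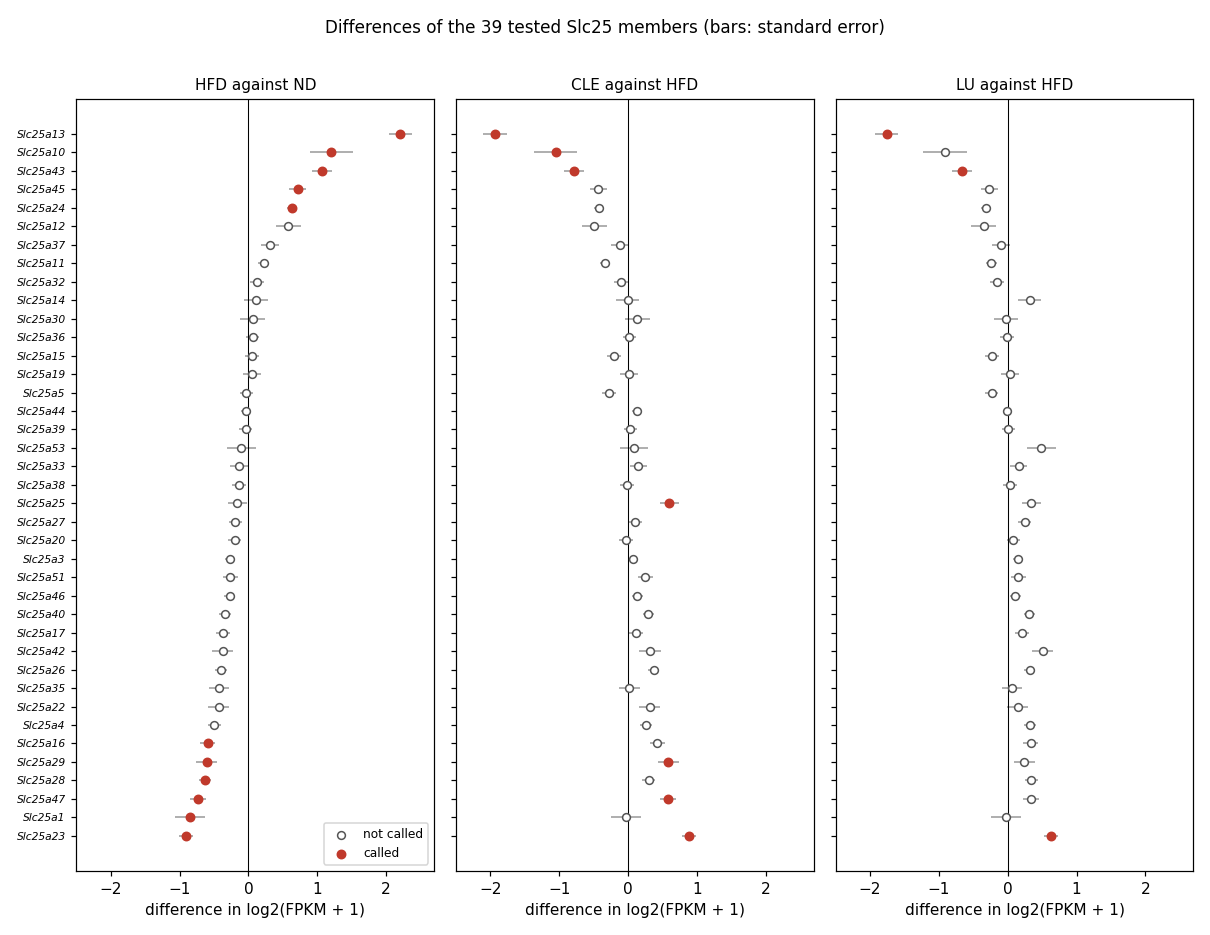
Difference of each of the 39 tested Slc25 members in log2(FPKM + 1) with its standard error, in HFD against ND, CLE against HFD and LU against HFD, with called members as filled points and members ordered by the first comparison. The HFD panel holds 11 called members, the CLE panel 7 and the LU panel 3, and Slc25a1 lies at 0 in both supplement panels.

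Among the amino acid carriers, Slc25a13 had the widest difference of the family. Slc25a13 is citrin, an aspartate/glutamate carrier of the malate-aspartate shuttle, which brings cytosolic reducing power into mitochondria. It lies on chromosome 6 (GRCm38, 6041218 to 6217173, minus strand). It was at 5.63, 5.05 and 5.12 FPKM in HFD mice 12, 15 and 18, and at 0.447, 0.459 and 0.185 FPKM in ND mice 2, 3 and 4. CLE mice 2, 4 and 11 had 0.351, 0.529 and 1.14 FPKM, and LU mice 2, 3 and 8 had 0.642, 0.712 and 1.25 FPKM. Every HFD mouse was above every other mouse, while CLE and ND overlapped. Slc25a13 rose by 2.21 (SE 0.17, adjusted p = 1.88e-06, limma) in the HFD, and the mean FPKM of the HFD was 14.5 times that of the ND. It fell by 1.93 with CLE (adjusted p = 2.43e-05, limma) and by 1.76 with LU (adjusted p = 0.000118, limma), both against the HFD. It reached 1 FPKM in 5 libraries, the 3 of the HFD and 1 each of CLE and LU, so it passed the filter largely through the group where it was high. In LU mice 3 and 8, nearly all of the value came from a transcript whose Ensembl identifier is not in the GENCODE release used for matching.

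The paralogue Slc25a12 (aralar), which carries the same substrates, was less different. It was at 8.76, 8.63 and 9.99 FPKM in HFD mice, against 6.45, 4.14 and 7.06 FPKM in the ND mice, so the groups did not overlap. The difference was 0.58 (SE 0.18, adjusted p = 0.0191, limma), just under the fold change required, and it was not called. CLE mice had 6.00, 6.77 and 5.83 FPKM, below all HFD mice. LU mouse 8, at 9.12 FPKM, was inside the range of the HFD mice, whereas the other LU mice had 6.62 and 5.48 FPKM. Of the enzymes of the same shuttle, the cytosolic aspartate aminotransferase Got1 rose by 0.79 in the HFD (adjusted p = 0.00224, limma). Got1 was at 13.4, 11 and 10.6 FPKM in HFD mice and between 5.49 and 7.96 FPKM in the ND mice. The mitochondrial form Got2 was at 25.2, 25.1 and 26.6 FPKM in HFD mice, against 17.7, 17.3 and 19.6 FPKM in the ND mice. The malate dehydrogenases of the shuttle went the other way, and neither was called. Mdh2 fell by 0.47 in the HFD (adjusted p = 0.00157, limma) and Mdh1 by 0.28 (adjusted p = 0.0633, limma).

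The remaining amino acid carriers had smaller differences. Slc25a29, a carrier of basic amino acids, fell by 0.61 in the HFD (SE 0.15, adjusted p = 0.00703, limma) and rose by 0.59 with CLE (adjusted p = 0.013, limma). Its FPKM was 3.01, 3.18 and 2.65 in the ND mice, 1.32, 2.13 and 1.38 in the HFD mice, 2.83, 3.62 and 2.32 in the CLE mice and 1.72, 1.90 and 2.65 in the LU mice. LU and HFD mice overlapped, and LU was not called. Without ND mouse 3, or without HFD mouse 12 or 18, the call in the HFD was lost, and without HFD mouse 12 or 18 or CLE mouse 4, the call with CLE was lost. The call with CLE was also lost with the letter R as covariate. Both calls of Slc25a29 were lost with the highest transcript alone and without assembled transcript variants. Slc25a44, a carrier of branched-chain amino acids, stayed between 22.0 and 25.7 FPKM in all 12 libraries. Slc25a15, Slc25a22 and Slc25a38 were not called in any comparison.

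Among the carriers of di- and tricarboxylates, Slc25a10 and Slc25a1 moved apart. Slc25a10, the dicarboxylate carrier, exchanges malate or succinate for phosphate. It lies on chromosome 11 (GRCm38, 120491840 to 120499187, plus strand). It was at 140, 217 and 180 FPKM in HFD mice, against 47, 119 and 78.4 FPKM in the ND mice. CLE mice had 96.8, 56.5 and 110 FPKM, and LU mice had 92.8, 82.0 and 107 FPKM. All HFD mice were above all others, though the ND mice spread from 47 to 119 FPKM. Slc25a10 rose by 1.20 in the HFD (SE 0.32, adjusted p = 0.00792, limma) and fell by 1.05 with CLE (SE 0.32, adjusted p = 0.0238, limma). With LU the difference was -0.91 (adjusted p = 0.0522, limma), which missed the threshold, and the CLE call was lost without HFD mouse 15, HFD mouse 18 or CLE mouse 4. The deposited table also lists transcripts of Mrpl12, a gene of the mitochondrial ribosome at the same locus, under the name Slc25a10. These were left out of the values above, and with them included Slc25a10 was called in the same comparisons.

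Slc25a1 carries citrate out of the matrix to the cytosol, where citrate feeds fatty acid synthesis. It lies on chromosome 16 (GRCm38, 17925223 to 17928219, minus strand). It was at 150, 250 and 155 FPKM in ND mice 2, 3 and 4, and ND mouse 3 stood apart from the other ND mice. HFD mice had 86.5, 115 and 98.9 FPKM, CLE mice 127, 74.9 and 95.7 FPKM, and LU mice 92.2, 108 and 93.7 FPKM. All ND mice were above all other mice, and the HFD, CLE and LU mice overlapped. Slc25a1 fell by 0.85 in the HFD (SE 0.22, adjusted p = 0.00686, limma). Against the HFD the difference was -0.04 with CLE (95% interval -0.51 to 0.44) and -0.02 with LU (95% interval -0.50 to 0.45), so neither supplement raised it by a detectable amount. It was the only member called against the ND in either supplement group, with a difference of -0.88 in CLE (adjusted p = 0.0412, limma) and of -0.87 in LU (adjusted p = 0.0226, limma). Of all genes tested, 2.92% were called in CLE against ND and 6.59% in LU against ND. Without ND mouse 3 the differences were -0.61 in the HFD (adjusted p = 0.0237, limma), -0.65 in CLE (adjusted p = 0.0999, limma) and -0.64 in LU (adjusted p = 0.0651, limma), so that the HFD call remained. The CLE call was also lost without ND mouse 2, HFD mouse 12, 15 or 18, CLE mouse 4 or 11, or LU mouse 2, and the LU call without LU mouse 2 or 8. Without the 4 libraries with the letter R, which leaves ND mouse 2 as the sole ND mouse, the HFD difference was -0.59. A test of it would take the spread of the lone ND mouse from the other groups, so no call is read from it.

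Slc25a11, the oxoglutarate/malate carrier and a partner of Slc25a12 and Slc25a13 in the malate-aspartate shuttle, was at 36.1, 36.9 and 40.9 FPKM in HFD mice and at 32.0, 32.6 and 32.6 FPKM in the ND mice. CLE mice had 30.1, 29.5 and 30.1 FPKM and LU mice 31.4, 30.5 and 34.1 FPKM. All HFD mice were above all others, but the difference of 0.22 from the ND (adjusted p = 0.0305, limma) was under the fold change required. Among enzymes that use the carried acids, the ATP citrate lyase Acly was not called in the HFD (difference -0.17, adjusted p = 0.534, limma), whereas the acetyl-CoA carboxylase Acaca fell by 1.74 (adjusted p = 2.92e-05, limma). Pck1, which draws on oxaloacetate and supplies glycerol in fat cells, fell by 2.36 in the HFD and rose by 1.94 with CLE and by 1.59 with LU.

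The promoters of 4 carriers that the results turn on are given next, because Slc25a13 and Slc25a10 were high in the HFD while Slc25a1 and Slc25a23 were low there. Each is the run of 250 bases before the transcription start in RefSeq (GRCm38.p6), written from 5′ to 3′ on the strand of the gene. Capitals mark an E-box, the letters CACGTG, which read the same on both strands.
Slc25a13 (chr6:6217174-6217423, minus strand): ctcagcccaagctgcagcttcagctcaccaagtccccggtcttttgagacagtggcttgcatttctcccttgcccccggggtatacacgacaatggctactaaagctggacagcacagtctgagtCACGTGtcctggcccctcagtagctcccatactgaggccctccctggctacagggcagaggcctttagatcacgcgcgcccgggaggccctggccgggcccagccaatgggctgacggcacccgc
Slc25a10 (chr11:120491587-120491836, plus strand): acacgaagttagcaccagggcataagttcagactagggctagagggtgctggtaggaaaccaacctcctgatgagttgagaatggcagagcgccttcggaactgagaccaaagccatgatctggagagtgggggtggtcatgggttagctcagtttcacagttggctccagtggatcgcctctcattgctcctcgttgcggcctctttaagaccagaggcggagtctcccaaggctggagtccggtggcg
Slc25a1 (chr16:17928220-17928469, minus strand): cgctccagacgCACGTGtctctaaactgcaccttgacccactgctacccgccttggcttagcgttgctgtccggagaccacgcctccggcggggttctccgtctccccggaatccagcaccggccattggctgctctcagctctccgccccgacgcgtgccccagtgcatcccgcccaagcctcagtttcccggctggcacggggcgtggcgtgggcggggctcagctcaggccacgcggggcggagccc
Slc25a23 (chr17:57059864-57060113, minus strand): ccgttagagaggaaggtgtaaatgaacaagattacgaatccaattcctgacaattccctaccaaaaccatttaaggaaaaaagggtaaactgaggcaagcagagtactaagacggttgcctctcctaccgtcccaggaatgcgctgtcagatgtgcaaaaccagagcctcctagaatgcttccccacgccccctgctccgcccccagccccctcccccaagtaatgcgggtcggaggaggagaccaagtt
The E-box begins 125 bases before the start of Slc25a13 and 239 bases before that of Slc25a1, 2 genes whose levels moved in opposite directions in the HFD. A promoter was found for 36 of the 47 members, 46 promoters in all, and 7 of these 36 members held an E-box in at least 1 promoter, while 6.02% of the 32851 promoters in the table held one. They were Slc25a1, Slc25a13, Slc25a14, Slc25a15, Slc25a31, Slc25a33 and Slc25a36, of which 2 were called in the HFD. Of the other motifs searched on both strands, the letters CCGGAAG (an ETS motif) occurred in 6 members, beside 6.91% of all promoters. The letters AAGGTCA, bound by oestrogen-related receptors, occurred in Slc25a34, beside 4.08%. The core promoter letters TATAAA occurred in Slc25a18 and Slc25a21, beside 12.4%. For every motif, the E-box included, a member counts if any of its promoters held the letters, whereas the percentages are shares of single promoters. The counts and the percentages are therefore not like for like, and an excess in the family was not tested. None of the searched motifs occurred in the window of Slc25a10 or in the one shown of Slc25a23, which has 2 promoters in the table.

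Among the carriers of nucleotides and phosphate, 1 of 10 tested members was called higher in the HFD and 1 lower, beside 14.9% and 10.8% of all genes. Both belong to the same branch. Slc25a23, Slc25a24 and Slc25a25 are the ATP-Mg/phosphate carriers, which calcium controls and which set the adenine nucleotide content of the matrix. Slc25a23 was at 22.0, 19.5 and 20 FPKM in HFD mice, 43.2, 37.4 and 38.0 FPKM in the ND mice, 41.6, 40.0 and 34.6 FPKM in the CLE mice and 35.0, 29.1 and 32.6 FPKM in the LU mice. All HFD mice were below all others. Slc25a23 fell by 0.91 in the HFD (SE 0.10, adjusted p = 2.59e-05, limma). It rose by 0.88 with CLE (SE 0.10, adjusted p = 8.7e-05, limma) and by 0.63 with LU (SE 0.10, adjusted p = 0.00128, limma). The LU call of Slc25a23 was lost without LU mouse 2, without the 4 libraries with the letter R and with the highest transcript alone. It was the only member called higher with LU.

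Slc25a24 moved the other way. It was at 18.1, 17.2 and 18.4 FPKM in HFD mice, against 11.2, 10.8 and 11.4 FPKM in the ND mice, and it rose by 0.64 in the HFD (SE 0.07, adjusted p = 3.77e-05, limma). CLE mice had 12.9, 13.6 and 12.9 FPKM and LU mice had 15.2, 13.2 and 14.2 FPKM, so both groups lay between the ND and the HFD without overlap. The differences from the HFD, -0.42 and -0.32, were under the fold change required. Slc25a25 was not called in the HFD. It was at 28.7, 34 and 25.4 FPKM in HFD mice, 39, 27.6 and 32.9 FPKM in the ND mice, 41.0, 45.6 and 47.6 FPKM in the CLE mice and 37.3, 33.9 and 41.1 FPKM in the LU mice. It rose by 0.60 with CLE against the HFD (SE 0.14, adjusted p = 0.00639, limma), and this call was lost without HFD mouse 18, CLE mouse 4 or CLE mouse 11.

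The most abundant carriers of this class were not called. Slc25a3 was at 166, 176 and 179 FPKM in HFD mice, 201, 223 and 202 FPKM in the ND mice, 183, 185 and 178 FPKM in the CLE mice and 188, 198 and 193 FPKM in the LU mice. All ND mice were above all others, and the difference in the HFD was -0.26 (adjusted p = 0.0112, limma), under the fold change required. Slc25a4, the ADP/ATP carrier of heart and muscle, was at 88.3, 96.6 and 92.6 FPKM in HFD mice, against 122, 148 and 124 FPKM in the ND mice. CLE mice had 116, 109 and 108 FPKM and LU mice 111, 123 and 115 FPKM, above all HFD mice. The difference of Slc25a4 in the HFD, -0.49 (SE 0.09, adjusted p = 0.000883, limma), was under the fold change required, as were those of 0.26 with CLE and 0.33 with LU (adjusted p = 0.0449 and 0.0209, limma). Slc25a5, the widespread ADP/ATP carrier, was at 164, 184 and 183 FPKM in HFD mice, against 171, 207 and 167 FPKM in the ND mice. CLE mice had 149, 140 and 148 FPKM and LU mice 148, 160 and 144 FPKM, below every HFD and ND mouse. Against the HFD the difference of Slc25a5 was -0.28 with CLE (adjusted p = 0.0452, limma), under the fold change required, and -0.23 with LU (adjusted p = 0.0956, limma). The ADP/ATP carriers thus did not run in parallel by value, though their difference was not tested. Slc25a5 and Slc25a4 are close paralogues, and reads shared with each other or with processed copies of Slc25a5 could have been split between them. The pyrimidine nucleotide carriers Slc25a33 and Slc25a36 were between 2.36 and 3.62 FPKM and between 30.9 and 39.7 FPKM over all libraries, and neither was called.

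**Figure D3:**
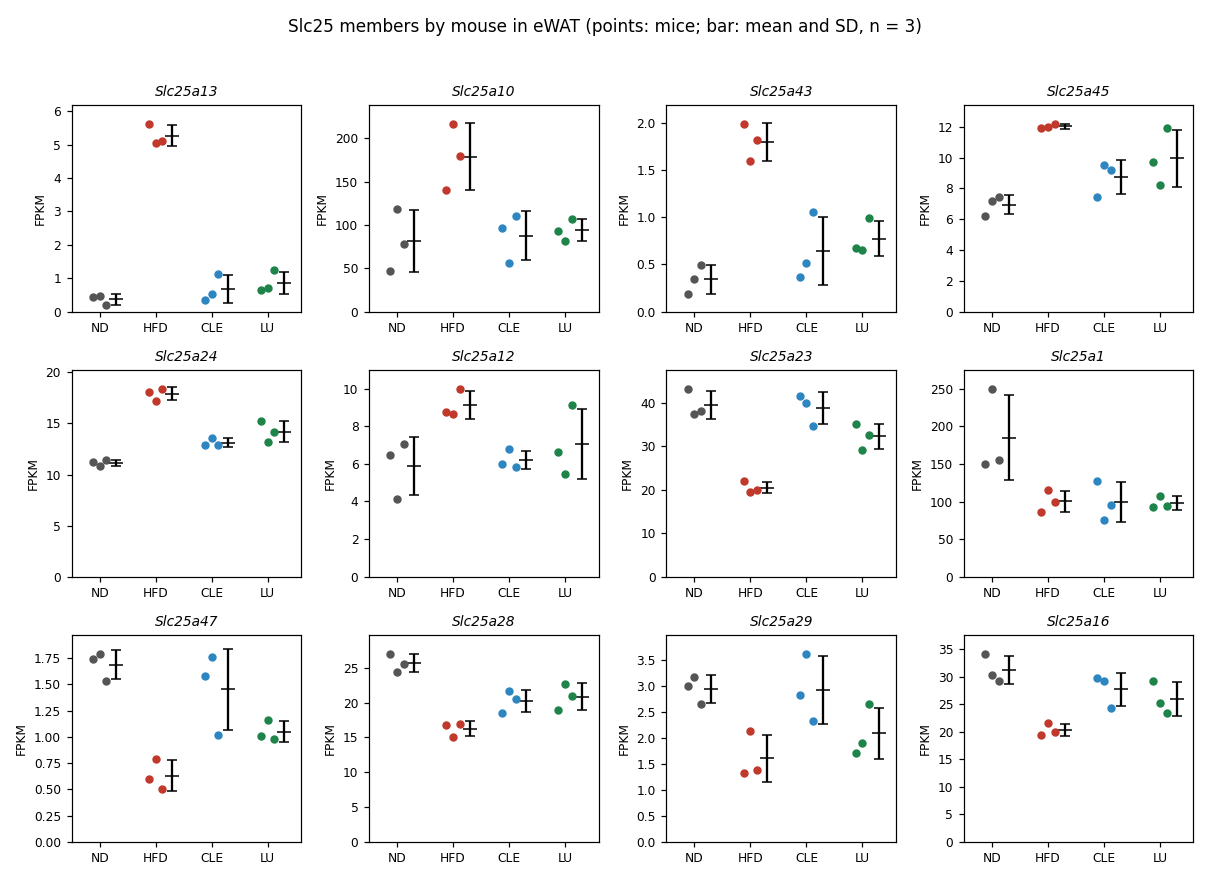
FPKM of 12 Slc25 members in each mouse, by diet, with the mean and SD of 3 mice beside the points and every axis starting at 0. The upper 6 panels hold members with higher means in the HFD, such as Slc25a13 at 5.05 to 5.63 FPKM, and the lower 6 hold members called lower in the HFD, such as Slc25a23 at 19.5 to 22.0 FPKM.

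Among the 9 carriers of cofactors and carnitine, all were tested, and 2 were called lower in the HFD and none higher. Beside them, 10.8% of all genes tested were called lower in the HFD and 14.9% higher. Slc25a47, a carrier known mainly from liver, was at 0.595, 0.789 and 0.500 FPKM in HFD mice, 1.74, 1.79 and 1.53 FPKM in the ND mice, 1.58, 1.76 and 1.02 FPKM in the CLE mice and 1.01, 1.16 and 0.978 FPKM in the LU mice. All HFD mice were below all others. It fell by 0.73 in the HFD (SE 0.12, adjusted p = 0.000354, limma) and rose by 0.59 with CLE (SE 0.12, adjusted p = 0.00272, limma). Slc25a47 reached 1 FPKM in 8 libraries and in no HFD mouse, so it passed the filter only through the groups where it was high. The CLE call was lost without HFD mouse 12 or 18, or CLE mouse 2 or 4, and with the letter R as covariate. Only 13.3% of the mean value of Slc25a47 came from its annotated transcript, and the rest from assembled variants of it. The gene was not tested without those variants or with its highest transcript alone. Slc25a47 lies head to head with Slc25a29 on chromosome 12, on the opposite strand, with 162 bases between the genes, and the 2 neighbours were called in the same comparisons and directions. Of 5 liver markers, 4 were tested and 2 were called lower in the HFD, 2 higher with CLE and none with LU. Of all genes tested, 10.8% were called lower in the HFD, 6.33% higher with CLE and 4.81% higher with LU. The 5 liver markers summed to 1.76 to 10.4 FPKM in HFD mice, 13.4 to 32.5 in the ND mice, 6.93 to 26.2 in the CLE mice and 4.70 to 6.25 in the LU mice. Ttr and Fgb were at 0 in ND mice 3 and 4, HFD mouse 15, CLE mouse 4 and LU mouse 2, and the part of liver RNA in the values of Slc25a47 was not tested.

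Slc25a16, which is linked to coenzyme A in the matrix, fell by 0.59 in the HFD (SE 0.11, adjusted p = 0.000887, limma). It was at 19.5, 21.6 and 19.9 FPKM in HFD mice, against 34.2, 30.3 and 29.3 FPKM in the ND mice, 29.8, 29.2 and 24.3 FPKM in the CLE mice and 29.3, 25.2 and 23.4 FPKM in the LU mice. The call was lost without ND mouse 2, HFD mouse 12 or HFD mouse 18, where the difference came under the fold change required. The call of Slc25a16 was also lost with the letter R as covariate and with a replicate block on the mouse number. It was lost as well with the highest transcript alone and without assembled transcript variants. Slc25a20, the carnitine/acylcarnitine carrier that takes fatty acids into the matrix for oxidation, was not called. It was at 38.5, 36.7 and 38.0 FPKM in HFD mice, 45.9, 41.0 and 43.6 FPKM in the ND mice, 38.8, 33.2 and 39.3 FPKM in the CLE mice and 35.7, 44.3 and 40.2 FPKM in the LU mice. The difference in the HFD was -0.20 (95% interval -0.41 to 0.01). The enzyme one step before it, Cpt1a, rose by 0.88 in the HFD (adjusted p = 7.29e-05, limma).

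The other cofactor carriers were not called. Slc25a51, which takes NAD into mitochondria, was between 50.4 and 70.4 FPKM in all libraries. Slc25a39 was at 73.3, 76.4 and 71.1 FPKM in HFD mice, 72.6, 81.1 and 73.6 FPKM in the ND mice, 84.0, 66.8 and 75.6 FPKM in the CLE mice and 68.9, 78.8 and 74.5 FPKM in the LU mice, so the groups overlapped. Its paralogue Slc25a40 was between 4.81 and 7.11 FPKM, with a difference of -0.34 in the HFD (adjusted p = 0.00501, limma), which was under the fold change required. Slc25a26, the carrier of S-adenosylmethionine, was at 8.59, 8.78 and 8.19 FPKM in HFD mice and between 10.2 and 12.5 FPKM in all other mice.

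Of the mitoferrins, which take iron into the matrix, Slc25a28 was called and Slc25a37 was not. Slc25a28 was at 16.8, 15 and 16.9 FPKM in HFD mice, 27.0, 24.4 and 25.5 FPKM in the ND mice, 18.5, 21.6 and 20.5 FPKM in the CLE mice and 18.9, 22.7 and 21.0 FPKM in the LU mice. The CLE and LU mice lay between the ND and HFD mice, without overlap with either. Slc25a28 fell by 0.63 in the HFD (SE 0.09, adjusted p = 0.0002, limma), and the call was lost without HFD mouse 15. Slc25a37, the form of blood-forming cells, was at 15.9, 15.7 and 16.7 FPKM in HFD mice and between 12.7 and 12.8 FPKM in the ND mice. CLE and LU mice spread between 11.9 and 17.6 FPKM.

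Among the carriers with a less defined substrate, Slc25a43 and Slc25a45 were called higher in the HFD. Slc25a43 was at 1.99, 1.59 and 1.82 FPKM in HFD mice, 0.182, 0.348 and 0.493 FPKM in the ND mice, 0.362, 0.519 and 1.05 FPKM in the CLE mice and 0.677, 0.651 and 0.991 FPKM in the LU mice. All HFD mice were above all others. It rose by 1.07 in the HFD (SE 0.15, adjusted p = 0.000125, limma), fell by 0.79 with CLE (adjusted p = 0.00187, limma) and fell by 0.66 with LU (adjusted p = 0.0073, limma). The LU call was lost without assembled transcript variants. Like Slc25a13, Slc25a43 passed the filter largely through the HFD mice, with 1 other library at 1 FPKM. Slc25a45 was at 11.9, 12.0 and 12.2 FPKM in HFD mice, against 6.22, 7.20 and 7.43 FPKM in the ND mice, and it rose by 0.72 (SE 0.13, adjusted p = 0.000658, limma). CLE mice had 7.45, 9.49 and 9.19 FPKM, a difference of -0.43 from the HFD (adjusted p = 0.021, limma), which was under the fold change required. LU mice had 9.71, 8.22 and 11.9 FPKM, and the last of them, mouse 8, lay just below the lowest HFD mouse.

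The carriers related to the uncoupling proteins under Slc25 symbols, Slc25a14, Slc25a27 and Slc25a30, were not called in any comparison. The proteins with the symbols Ucp2 and Ucp3 were called in all 3 comparisons with the HFD. Ucp2 was at 374, 388 and 422 FPKM in HFD mice and between 87.6 and 112 FPKM in the ND mice. It rose by 2.02 in the HFD (adjusted p = 2.71e-06, limma), and it fell by 1.31 with CLE and by 1.13 with LU. Ucp3 was at 18, 20.1 and 18 FPKM in HFD mice, against 69.6, 39.5 and 47.9 FPKM in the ND mice. It fell by 1.40 in the HFD (adjusted p = 5.06e-05, limma) and rose by 1.00 with CLE and by 0.87 with LU. Ucp1 was between 0 and 0.46 FPKM and was not tested. Mtch2, a carrier-like protein of the outer membrane, fell by 0.68 in the HFD (adjusted p = 0.0014, limma), whereas Mtch1 was not called.

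Transport by proteins outside the family was examined beside the carriers. Of 18 other inner membrane transporters, 2 were called higher in the HFD and 4 lower, beside 14.9% and 10.8% of all genes. The lower ones were Mpc1 and Mpc2, the subunits of the pyruvate carrier, and the sideroflexins Sfxn1 and Sfxn4, while Sfxn3 and Mcub, a subunit of the calcium uniporter, were higher. Mpc1 was at 107, 130 and 103 FPKM in HFD mice, against 207, 368 and 255 FPKM in the ND mice, and it fell by 1.24 (adjusted p = 0.000195, limma). With CLE and LU it was at 147 to 185 FPKM, above all HFD mice, but the differences of 0.49 and 0.52 missed the threshold (adjusted p = 0.0588 and 0.0538, limma). None of the 16 tested genes of the machinery that imports carriers was called in the 3 comparisons with the HFD. The same held for the 3 Vdac channels of the outer membrane and for 7 regulators of mitochondrial biogenesis. Of all genes tested, 25.6%, 16.5% and 12.4% were called in HFD against ND, CLE against HFD and LU against HFD. Median differences of these lists lay between -0.11 and 0.11. Single import genes ran from -0.50 to 0.57 in the HFD, the highest being Timm22 (adjusted p = 0.0106, limma). The regulator Tfam fell by 0.41 (adjusted p = 0.0312, limma). Both were under the fold change required. Of 22 tested enzymes that act on the carried substrates, 5 were called higher in the HFD and 5 lower, beside the same 14.9% and 10.8% of all genes. Gpd1, the cytosolic enzyme of the glycerol phosphate shuttle, rose by 0.88, and its mitochondrial partner Gpd2 fell by 0.59.

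**Figure D4:**
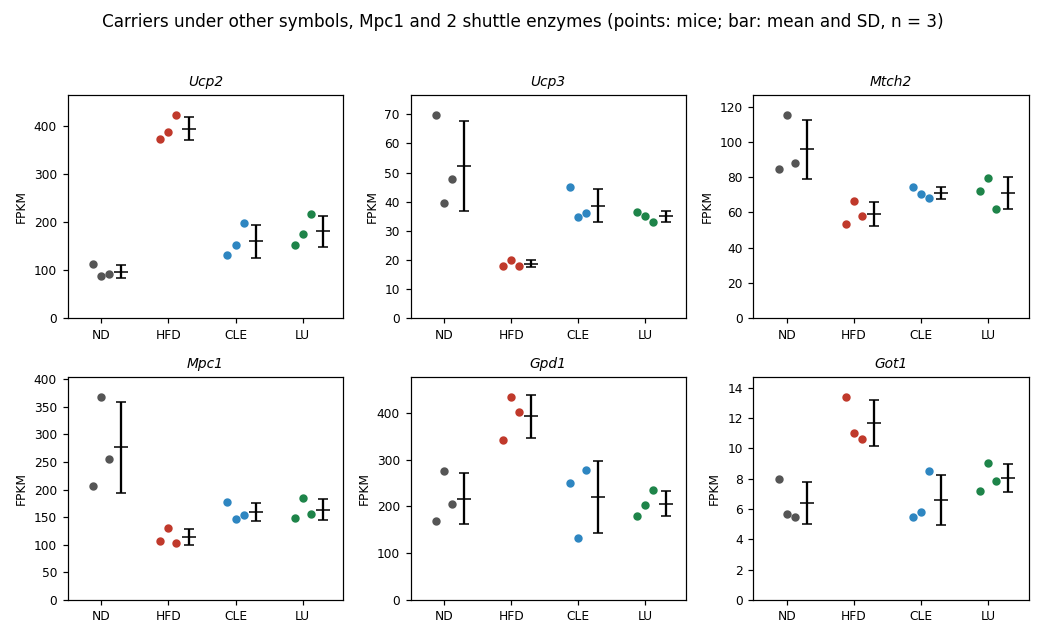
FPKM of Ucp2, Ucp3, Mtch2, Mpc1, Gpd1 and Got1 in each mouse, by diet, with the mean and SD of 3 mice beside the points. Ucp2 stands at 374 to 422 FPKM in the HFD mice, above all other mice, and Ucp3 and Mpc1 are lowest there.

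The whole tissue was extracted, so a lower value can mean fewer cells of a type or less RNA per cell, which cannot be told apart. Marker genes of cell types moved with the diets in which carriers were called. Beside the marker counts that follow, 14.9% of all genes tested were called higher in the HFD and 10.8% lower. With CLE 6.33% were called higher and 10.1% lower, and with LU 4.81% higher and 7.64% lower. All 8 macrophage markers were called higher in the HFD, and all 8 were called lower with CLE and with LU. Their sum was 2218 to 2544 FPKM in HFD mice, 321 to 489 FPKM in the ND mice, 561 to 821 FPKM in the CLE mice and 890 to 1009 FPKM in the LU mice, and none of the 8 was at 0 in any library. CLE mouse 11, LU mouse 8 and HFD mouse 12 had the highest Slc25a13, Slc25a43 and macrophage sum of their groups. In the ND, mouse 3 had the highest Slc25a13 and macrophage sum, but mouse 4 had the highest Slc25a43. HFD mouse 15 had a higher macrophage sum than HFD mouse 18 but lower Slc25a13 and Slc25a43. Of 8 adipocyte markers, 7 were called lower in the HFD, 7 were called higher with CLE and 4 with LU. Their sum was 18028 to 20620 FPKM in HFD mice, 37315 to 39119 FPKM in the ND mice, 31521 to 36178 FPKM in the CLE mice and 30150 to 36893 FPKM in the LU mice. All 6 endothelial markers were tested, and 2 were called lower in the HFD, 3 higher with CLE and 4 higher with LU. They summed to 216 to 352 FPKM in HFD mice, 310 to 493 FPKM in the ND mice, 376 to 537 FPKM in the CLE mice and 419 to 480 FPKM in the LU mice, with none at 0 in any library. Of 5 mesothelial markers, all tested, 4 were called lower in the HFD and 1 higher with CLE and with LU. They summed to 2.29 to 7.02 FPKM in HFD mice, 9.43 to 53.3 FPKM in the ND mice, 6.91 to 11.9 FPKM in the CLE mice and 7.48 to 15.6 FPKM in the LU mice, and Msln was at 0 in HFD mouse 18. The part of these cell types in the differences of the carriers was not tested.

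**Figure D5:**
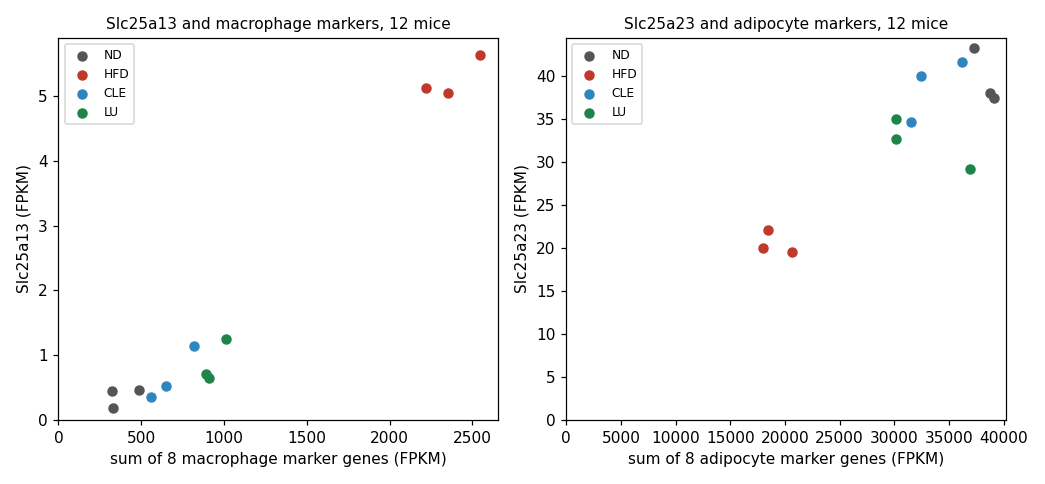
Slc25a13 FPKM against the summed FPKM of 8 macrophage markers, and Slc25a23 FPKM against that of 8 adipocyte markers, in the 12 mice coloured by diet. The HFD mice stand apart in both plots, at macrophage sums of 2218 to 2544 FPKM and adipocyte sums of 18028 to 20620 FPKM.

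Skeletal muscle markers were summed too, since Slc25a4 and Slc25a12 are abundant in muscle. Of 5 genes measured, 1 was tested, Pvalb, and it was called higher in the HFD. The sum of the 5 was 6.13 to 12.6 FPKM in HFD mice, 0.554 to 1.08 FPKM in the ND mice, 1.14 to 19.9 FPKM in the CLE mice and 2.08 to 3.32 FPKM in the LU mice. Pvalb held most of this sum in the HFD, at 6.82, 6.44 and 5.79 FPKM. The other 4 summed to 5.83 FPKM in HFD mouse 12 and 15.8 FPKM in CLE mouse 11, and to 0.306 to 1.04 FPKM in the other 10 libraries, with HFD mice 15 and 18 at or below 0.344 FPKM and the ND mice at 0.406 FPKM or above. The muscle creatine kinase Ckm was at 1.43 FPKM in HFD mouse 12 and 5.29 FPKM in CLE mouse 11, and at 0 to 0.0332 FPKM in the other libraries. In HFD mouse 12 Slc25a4 and Slc25a12 lay at 88.3 and 8.76 FPKM, beside 92.6 to 96.6 and 8.63 to 9.99 FPKM in the other HFD mice. In CLE mouse 11 they lay at 108 and 5.83 FPKM, beside 109 to 116 and 6.00 to 6.77 FPKM in the other CLE mice. The part of muscle RNA in the values of the carriers was not tested.

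Between CLE and LU no member was called in the limma fit, beside 0.00783% of all genes, which is 1 gene. The lowest adjusted p was 0.891, and 2 members had an unadjusted p under 0.05. Slc25a23 had the lowest, with a difference of 0.26 (95% interval 0.03 to 0.48) towards CLE. For Slc25a13 the difference was -0.17 (95% interval -0.54 to 0.20), for Slc25a10 -0.14 (95% interval -0.83 to 0.55) and for Slc25a25 0.25 (95% interval -0.05 to 0.55). These intervals do not show that the extract and luteolin acted alike.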

How the data were processed

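RNA of eWAT was sequenced by the authors as paired-end reads of mRNA, and they deposited FPKM values per transcript, with 1 column per library. The submitters' processing notes name TopHat2 2.0.12, Bowtie2 2.2.3 and Cufflinks 2.2.1. The deposited FPKM columns hold 152210 transcripts. Of 15 such columns, the 3 without a matching sample were left aside. The column of ND mouse 4 carries a different heading and was assigned by inference from its number and letter. Columns of the authors' own comparisons were not used.

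Transcripts with an Ensembl identifier, assembled variants of them included, were summed by gene of GENCODE M21 (GRCm38). Of 423 transcripts under Slc25 names, 410 were used, 8 of them without a match in GENCODE. Left out were 11 that belonged to Mrpl12 or Tmem82 and 2 with no usable Ensembl identifier, 1 each under Slc25a28 (assembled on the opposite strand) and Slc25a47. The library kit and notes do not state whether reads were counted by strand, so antisense overlaps such as that of Slc25a12 were not separated.

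For the test, limma 3.58.1 in R 4.3.3 was fitted to log2(FPKM + 1) of the 12 libraries with 1 coefficient per diet and no covariate. Mice were the replicates, taken from the labels. The script was first tested on simulated data. Figures were drawn with matplotlib.

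Members and lists were chosen with earlier results of these data known. Values are given in every library for members called against or in the HFD, the 6 most abundant members and a list of 17 well-known carriers, except that Slc25a33, Slc25a36, Slc25a44 and Slc25a51 are given by their range over all libraries and Slc25a37 partly by ranges. Alternatives were another pseudocount, filters, scalings, fits and transcript choices, and leaving out each library. The other assays of the study were not analysed here.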

Additional observations from a re-analysis of the deposited data

How the results depend on the processing

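No call of a member changed direction under any alternative. Of 11 calls in HFD against ND, 6 held under every alternative that kept the gene in the test, as did 3 of 7 in CLE against HFD, 1 of 3 in LU against HFD and 0 of the 2 calls of Slc25a1 against ND. The calls that held include Slc25a13 in all 3 comparisons with the HFD. They also include Slc25a43 in HFD against ND and in CLE against HFD, and Slc25a47 in HFD against ND. These genes passed the filter largely or only through the groups where they were high. Requiring a mean of 5 FPKM left 7 members in HFD against ND and 3 in CLE against HFD, since it removes Slc25a13, Slc25a29, Slc25a43 and Slc25a47 from the test. By adjusted p alone, 21, 16 and 11 members passed in the 3 comparisons with the HFD and 4 in LU against ND. With the letter R as covariate, 5 were called in CLE against HFD, 2 higher and 3 lower. In CLE against HFD, 4 were called with the highest transcript and 4 without the libraries with the letter R, and the cause was not tested. Leaving out 1 library gave 9 to 12 members in HFD against ND, 3 to 7 in CLE against HFD (3 without HFD mouse 18 or CLE mouse 4), 2 to 4 in LU against HFD, 0 in CLE against LU and 0 to 1 in CLE or LU against ND. The call in CLE against ND went to 0 with a pseudocount of 0.1, with no filter, with only the 2 groups compared, with the letter R as covariate, with the highest transcript, without assembled variants (class code j) and without the libraries with the letter R. In LU against ND it went to 0 with no filter and to 2 without assembled variants. With the highest transcript, Slc25a16 in LU against HFD (-0.016) and Slc25a40 in HFD against ND (0.070) and in LU against HFD (-0.30) turned, none of them called. Mouse numbers shared between groups name different mice, since each mouse was fed 1 diet. Deviations of same-numbered mice correlated at r of -0.099 to 0.189, which cannot show whether a number marks shared handling. A replicate block on the number gave 10, 7 and 3 members against or in the HFD, 0 between CLE and LU and 1 in each supplement group against ND. These alternatives were chosen after seeing the data: all rows under the deposited gene name and rows matched to GENCODE alone, and both gave 11, 7 and 3 members. Depth is unknown, so values under about 1 FPKM carry an error that these data do not give.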
